A study of Mus musculus with 4 samples.

Results

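A set of 10 genes of the histone H3 lysine 9 (H3K9) heterochromatin machinery and of the histone deacetylase corepressors were followed between Zscan4-positive and Zscan4-negative mouse embryonic stem (ES) cells. They were taken by symbol from the table of RefSeq transcripts as Trim28, Setdb1, Ehmt1, Ehmt2, Suv39h1, Cbx1, Cbx5, Kdm1a, Hdac1 and Hdac2. All 10 were found, out of 19797 symbols in that table, and all 10 passed the expression filter of the test (a mean of at least 1 over the libraries in FPKM, the count per kilobase of transcript scaled to the reads of the library). The cells were MC1-ZE7, one reporter line of strain MC1 (129S6/SvEvTac), grown without feeders in serum and leukemia inhibitory factor and sorted by the brightness of the fluorescent protein Emerald. One group was the bright Emerald fraction (Em+), the other the fraction without Emerald (Em-), with 2 libraries each, 4 in all. Both groups carry the same reporter and had the same medium. Total RNA depleted of ribosomal RNA was sequenced as stranded libraries, and the labels do not say whether a fraction's libraries stem from different cultures or sorting runs. All p-values therefore cover only the spread among these libraries, and that spread may be technical. The fractions follow the sample titles and the cell type field, whereas the description of each of the 4 samples gives the other fraction.

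In ES cells, H3K9 methylation silences endogenous retroviruses and many germline and early-embryo genes. KRAB zinc finger proteins bind such elements and recruit Trim28, which brings in the methyltransferase Setdb1, and HP1 proteins (encoded by Cbx1 and Cbx5) bind the resulting mark. Ehmt1 and Ehmt2 form the heterodimer that writes mono- and dimethylated H3K9, Suv39h1 writes the trimethylated form at pericentric repeats, Kdm1a removes methyl groups from H3K4 within the CoREST complex, and Hdac1 and Hdac2 are the deacetylase subunits of the CoREST, Sin3 and NuRD complexes. Loss of several of these factors is known to raise transcripts that are otherwise typical of the 2-cell embryo, the stage at which Zscan4 is active.

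The RefSeq table held between 16468218 and 18953217 counts per library. The labels could be compared with 11 2-cell-stage genes, of which 8 passed the filter. All 8 were higher in Em+ cells, with a median log2 fold change of 7.28. Each of the 8 was under 1 FPKM in both Em- libraries and passed the filter only through the Em+ libraries, so this count was largely set by the filter. Zscan4f, Tcstv1 and Dux lay below the filter, also with both Em+ libraries above both Em- libraries in FPKM. The ES cell markers Pou5f1, Sox2, Nanog, Zfp42, Esrrb, Klf4 and Tdgf1 were all above the filter, with a summed level of 957.7 to 1270 FPKM in Em+ and 1301 to 1312 FPKM in Em- libraries. Tested one by one, 1 of 7 was higher (Nanog, 0.48 on the log2 scale, edgeR adjusted p = 0.0192) and 0 were lower in Em+ cells, where 4.64% of all genes passed. The median log2 fold change was 0.0043, with estimates on both sides of 0. At an unadjusted edgeR p under 0.05 there were 5 of 7, against 25.3% of all genes. Of these Sox2 (-0.29), Pou5f1 (-0.27) and Esrrb (-0.19) were lower, and Nanog and Klf4 (0.27) were higher. Markers of other cell types had low summed levels. Summed levels were 5.07 to 6.16 FPKM in Em+ against 3.23 to 3.47 FPKM in Em- libraries for 3 fibroblast genes found of 6, while Col3a1, Dcn and Postn have no entry. Of these only Thy1 passed the filter, and it was higher in Em+ cells (0.89 on the log2 scale, edgeR adjusted p = 0.00386). Summed levels were 2.62 to 3.05 against 2.85 to 2.89 FPKM for 6 primitive endoderm genes and 4.78 to 6.17 against 5.45 to 5.66 FPKM for 8 early differentiation genes. Their part in the results was not tested. The Em+ libraries stood further apart than the Em- libraries: chi-square over degrees of freedom, 1 for sampling noise alone, came to 25.1 in the Em+ pair and 3.43 in the Em- pair. Em+ replicate 2 had the smallest share of its reads counted in RefSeq transcripts, 43.45% against 49.01 to 51.14% in the other libraries, and the largest share of Rn45s, a ribosomal RNA precursor, at 7.95% of its counts against 3.93 to 4.33%. The part of these shares in the differences was not tested. The lowest FPKM of 9 of the 10 genes, all but Hdac1, was in this library.

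None of the 10 genes passed the test between Em+ and Em- cells. The count was 0 of 10 (quasi-likelihood test of edgeR, adjusted p under 0.05 after Benjamini-Hochberg over 12050 genes), where 4.64% of all genes tested passed, 3.82% higher and 0.822% lower in Em+ cells. DESeq2's Wald test, which called 5.63% of all genes, and limma on log2(FPKM + 1), which called 2.43%, also called 0 of 10. At an unadjusted p under 0.05 there were 2 of 10, Hdac1 and Ehmt2, against 3045 of 12050 genes or 25.3%. The median log2 fold change (Em+ over Em-) of the 10 genes was 0.02, beside 0.00 for all genes. The groups did not overlap in TMM-scaled counts relative to the library total (CPM) for 6 of the 10, against 59.4% of all genes. These were Trim28, Setdb1 and Hdac1 with both Em+ libraries above, and Ehmt2, Hdac2 and Cbx5 with both below, against 29.7% of all genes in each direction. The split of calls over all genes was 460 higher and 99 lower with TMM scaling, and 334 higher and 293 lower with the library totals alone, which moved the median of all genes to -0.16. In bulk RNA, fewer cells that transcribe a gene and less of its RNA per cell cannot be told apart.

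**Figure D1:**
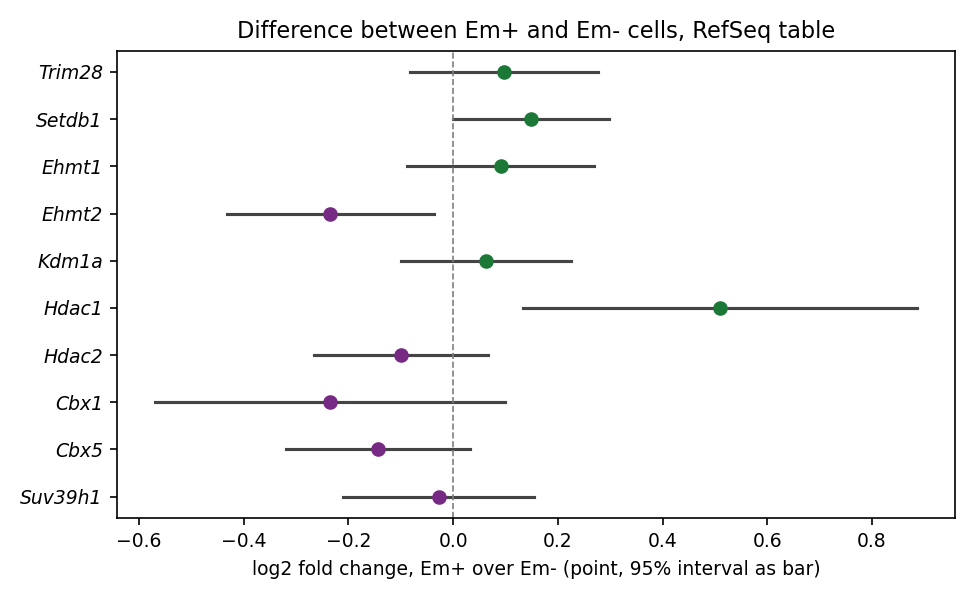
Log2 fold change (Em+ over Em-, horizontal axis) of the 10 genes in the RefSeq table, with points for the estimate of edgeR and bars for its 95% interval. The intervals of 8 genes include 0, and those of Ehmt2 (-0.43 to -0.04) and Hdac1 (0.13 to 0.89) do not, before adjustment for the number of genes tested.

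Levels per length were ordered from Trim28 down to Hdac1. Trim28 had the highest mean, 136.6 FPKM, with no overlap with Hdac2 at 52.8 FPKM, and it lay above 98.58% of all genes tested. Hdac2 and Kdm1a (45.5 FPKM) overlapped, and both stood clear of Cbx5 at 30.3 FPKM. Setdb1 (18.9 FPKM), Ehmt2 (17.7 FPKM) and Ehmt1 (12.7 FPKM) formed a chain in which each range overlapped the next, below Cbx5 in every library. Suv39h1 (9.37 FPKM), Cbx1 (7.11 FPKM) and Hdac1 (4.51 FPKM) formed the lowest chain, also with each range overlapping the next. Within pairs of related genes, the Trim28 to Setdb1 ratio of FPKM was the steadiest, at 6.82 to 7.38 over the 4 libraries, and the Ehmt2 to Ehmt1 ratio was 1.08 to 1.58. The Cbx5 to Cbx1 ratio was 3.72 to 4.71. The Hdac2 to Hdac1 ratio varied most, with 11.8 in Em+ replicate 1, 7.69 in Em+ replicate 2, and 13.9 and 14.9 in the Em- libraries.

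**Figure D2:**
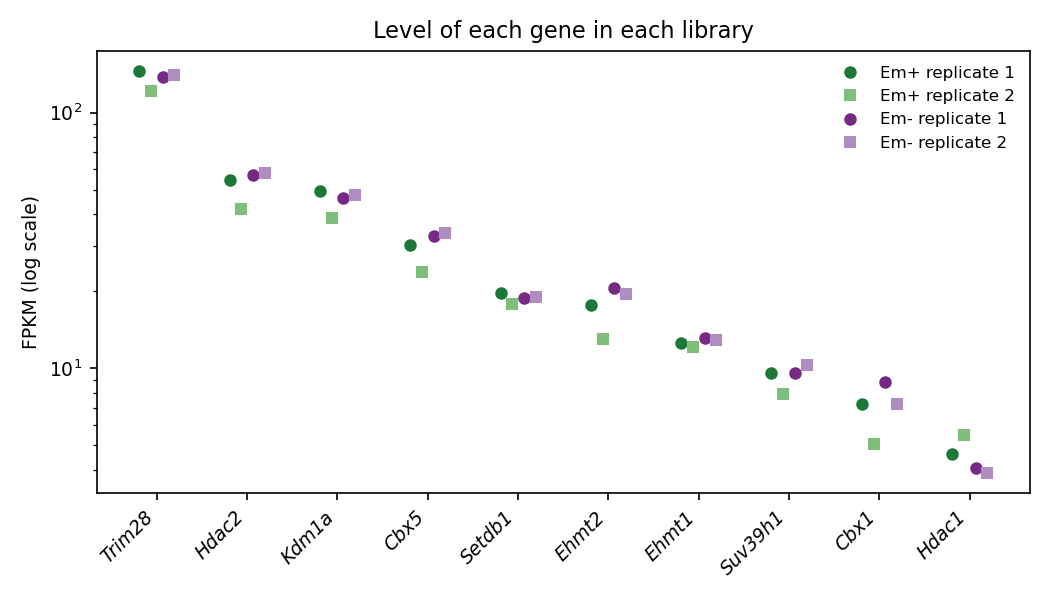
FPKM (vertical axis, log scale) of each of the 10 genes in each of the 4 libraries, ordered by mean level. Trim28 lies between 121.6 and 145.7 FPKM and Hdac1 between 3.90 and 5.46 FPKM, and Em+ replicate 2 (light green squares) is the lowest library for every gene except Hdac1.

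Trim28 (also called KAP1; mm10 chromosome 7, 13024152 to 13031032) is the scaffold to which KRAB zinc finger proteins dock. It was at 145.7 and 121.6 FPKM in the first and second Em+ library and at 138.4 and 140.6 FPKM in the Em- libraries, in the same order of replicates as for all genes below. Scaled counts were 953.6 ± 13.3 CPM for Em+ and 891.6 ± 8.58 CPM for Em- (SD, n = 2 each). Both Em+ libraries were above both Em- libraries in CPM, although Em+ replicate 2 was the lowest in FPKM. On the log2 scale the difference was 0.10 (SE 0.08, 95% interval -0.08 to 0.28, edgeR adjusted p = 0.457). Without Em+ replicate 2 it was 0.11 and passed (edgeR adjusted p = 0.0435). With library totals and no further scaling it was -0.06, against a median of -0.16 over all genes.

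Setdb1, the enzyme recruited by Trim28 that trimethylates H3K9 (chromosome 3, 95323525 to 95357202, 3 RefSeq transcripts), was at 19.7 and 17.8 FPKM in Em+ and at 18.9 and 19.1 FPKM in Em- libraries. Its CPM was 193.2 ± 7.99 for Em+ and 174.2 ± 0.787 for Em- (SD, n = 2 each), with no overlap. Its log2 fold change came to 0.15 (SE 0.06, 95% interval -0.00048 to 0.30, edgeR adjusted p = 0.199). Without Em+ replicate 1 it was 0.19 and passed (edgeR adjusted p = 0.00414), and with library totals alone it was -0.01. A long noncoding RNA, Gm4349, shares 271 bases with the Setdb1 transcript at 99.63% identity and is listed in all 4 tables, so single reads there could go to either.

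The estimates of the Ehmt pair lay on opposite sides of 0 with TMM scaling, and both below 0 with library totals alone (Ehmt1 -0.08, Ehmt2 -0.39), and neither gene passed. Ehmt1 (also GLP; chromosome 2, 24790769 to 24919609) had the narrowest FPKM range of the set, 12.5 and 12.1 in Em+ and 13.1 and 12.9 in Em- libraries. Its CPM was 138.5 ± 12.2 and 130.1 ± 2.01 (SD, n = 2 each), with overlap, and its log2 fold change was 0.09 (SE 0.08, 95% interval -0.09 to 0.27, edgeR adjusted p = 0.488). Leaving out Em+ replicate 1 gave 0.18, past the threshold (edgeR adjusted p = 0.0101), while without Em+ replicate 2 it was -0.0028. Ehmt2 (also G9a; chromosome 17, 34898974 to 34914050) was at 17.7 and 13 FPKM in Em+ and at 20.7 and 19.5 FPKM in Em- libraries, both Em+ values below both Em- values. Its CPM was 131.8 ± 13.7 for Em+ and 155.1 ± 6.71 for Em- (SD, n = 2 each). The log2 fold change of -0.24 (SE 0.08, 95% interval -0.43 to -0.04) had an unadjusted p of 0.0258 and did not pass (edgeR adjusted p = 0.149). Without Em+ replicate 1 it was -0.35 and passed (edgeR adjusted p = 0.000626), without Em+ replicate 2 it was -0.13, and over the 19 alternatives run it stayed negative, between -0.40 and -0.13.

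Suv39h1 (chromosome X, 8061171 to 8074760), the enzyme that trimethylates H3K9 at pericentric repeats, was at 9.60 and 7.93 FPKM in Em+ and at 9.61 and 10.3 FPKM in Em- libraries. Its CPM was 59.7 ± 1.30 and 60.9 ± 3.02 (SD, n = 2 each) with overlapping groups. The estimate was -0.03, the nearest to 0 of the 10 (SE 0.08, 95% interval -0.21 to 0.15, edgeR adjusted p = 0.851). The interval leaves room for a level lower by up to 0.21 or higher by up to 0.15 on the log2 scale. With 1 library left out the estimate ranged from -0.08 without Em- replicate 1 to 0.02 without Em- replicate 2.

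The HP1 genes, whose proteins read methylated H3K9, were lower in Em+ cells in the estimates, but neither passed. Cbx5 (HP1 alpha; chromosome 15, 103191546 to 103239816) was at 30.5 and 23.9 FPKM in Em+ and at 32.9 and 33.9 FPKM in Em- libraries. Its CPM was 531.1 ± 31.0 and 586.6 ± 11.3 (SD, n = 2 each) with no overlap, and its log2 fold change was -0.14 (SE 0.08, 95% interval -0.32 to 0.03, edgeR adjusted p = 0.274). Leaving out Em+ replicate 1 gave -0.20, past the threshold (edgeR adjusted p = 0.00119), and leaving out Em+ replicate 2 gave -0.09. Cbx1 (HP1 beta; chromosome 11, 96789136 to 96808640) rested on 338 and 245 counts in Em+ and 405 and 346 counts in Em- libraries, at 7.25, 5.07, 8.85 and 7.27 FPKM. Its groups overlapped in CPM, at 17.2 ± 2.38 and 20.2 ± 2.85 (SD, n = 2 each), and its log2 fold change was -0.23 (SE 0.14, 95% interval -0.57 to 0.10, edgeR adjusted p = 0.336). Without Em+ replicate 1 it was -0.39 and lay just past the threshold (edgeR adjusted p = 0.0495). It was -0.10 without Em+ replicate 2, -0.09 without Em- replicate 1 and -0.37 without Em- replicate 2.

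Kdm1a (also LSD1; chromosome 4, 136550533 to 136602723), the CoREST demethylase, was at 49.3 and 38.7 FPKM in Em+ and at 46.3 and 47.6 FPKM in Em- libraries. Its CPM overlapped between groups, at 291.3 ± 16.8 and 278.9 ± 5.17 (SD, n = 2 each). The log2 fold change was 0.06 (SE 0.07, 95% interval -0.10 to 0.23, edgeR adjusted p = 0.596), or -0.09 with library totals alone, and it passed in none of the 19 alternatives run. Without Em+ replicate 1 it was 0.0027, without Em+ replicate 2 it was 0.12, and without Em- replicate 1 it was 0.04.

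The deacetylase genes Hdac1 and Hdac2 had the most different estimates of any related pair in the set. Hdac2 (chromosome 10, 36974544 to 37001888) was at 54.4 and 42.0 FPKM in Em+ and at 57.0 and 58.0 FPKM in Em- libraries, and at 211.8 ± 14.7 and 227.1 ± 2.49 CPM (SD, n = 2 each), with both Em+ libraries below. Its log2 fold change was -0.10 (SE 0.07, 95% interval -0.27 to 0.07, edgeR adjusted p = 0.407), and without Em+ replicate 1 it was -0.17 and passed (edgeR adjusted p = 0.00623), while without Em+ replicate 2 it was -0.03. Hdac1 (chromosome 4, 129516104 to 129542646) had 332 and 408 counts in Em+ libraries against 289 and 287 in Em- libraries, at 4.61, 5.46, 4.08 and 3.90 FPKM. Both Em+ libraries were above both Em- libraries, and Em+ replicate 2 was the highest, at 25.8 CPM, with 18.5 CPM in Em+ replicate 1 and 15.9 and 15.1 CPM in Em- replicates 1 and 2. On the log2 scale the difference was 0.51 (SE 0.16, 95% interval 0.13 to 0.89), the largest of the 10, with an unadjusted p of 0.0145 and an edgeR adjusted p of 0.114. It was 0.73 without Em+ replicate 1 (edgeR adjusted p = 0.000381) and 0.25 without Em+ replicate 2, so its size rests on the second Em+ library. The difference between Hdac1 and Hdac2 in response was not tested.

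**Figure D3:**
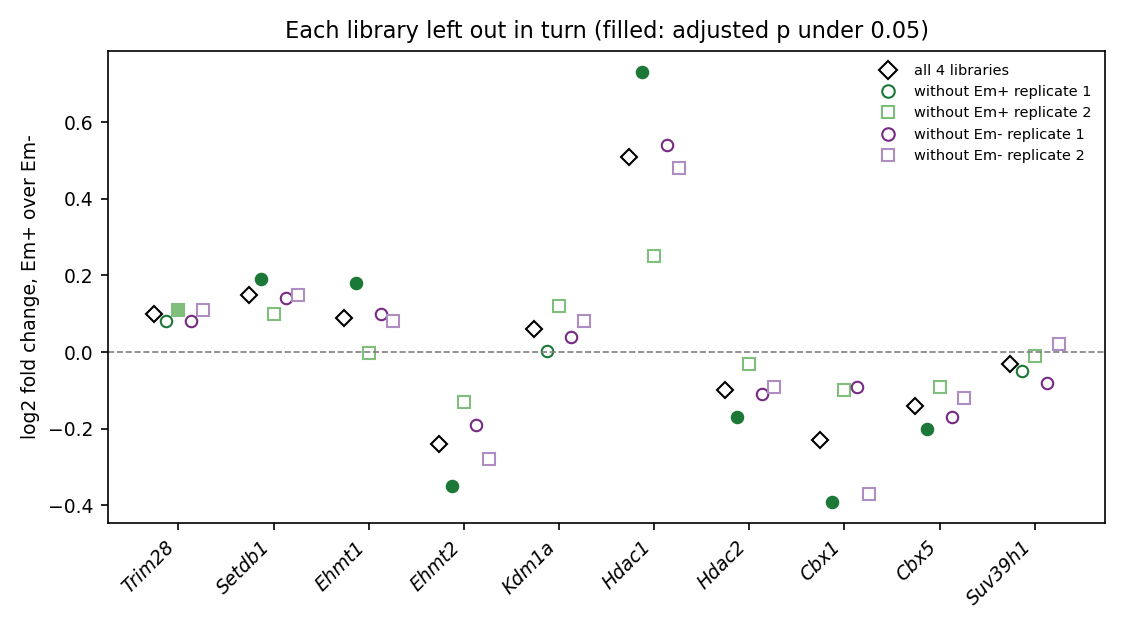
Log2 fold change (Em+ over Em-, vertical axis) of each of the 10 genes with all 4 libraries (black diamonds) and with each library left out in turn, filled where the adjusted p was under 0.05. Without Em+ replicate 1, 7 genes passed, without Em+ replicate 2 Trim28 alone passed, and without either Em- library none did.

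The calls without a library of the Em+ group should be read against the counts over all genes. Without Em+ replicate 1, 7 of the 10 genes passed, 3 higher (Setdb1, Ehmt1, Hdac1) and 4 lower (Ehmt2, Hdac2, Cbx1, Cbx5), while 41.4% of all genes tested passed, 21.9% higher and 19.5% lower. Without Em+ replicate 2, 1 of 10 passed and 16.3% of all genes did. In both fits the lone Em+ library is assumed to vary like the Em- libraries, which were closer to each other.

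Of the 10 genes, Hdac1 had the longest copies found among annotated transcripts, and copies without an annotation were not searched for. Besides the Setdb1 stretch above, the one other copy found at 90% identity or more belongs to Cbx1, whose pseudogene Gm7128 shares 412 bases at 92.96% identity and is listed in none of the 4 tables. In the GENCODE M21 annotation (GRCm38, the assembly of mm10), 3 processed pseudogenes align to 70.85 to 72.08% of the Hdac1 messenger RNA ENSMUST00000102597, which has 2038 bases, at identities of 94.55, 96.28 and 99.38%. The closest is Gm10093 (also Hdac1-ps), a single exon on chromosome 17 that matches bases 85 to 1528, nearly the whole coding sequence, at 99.38% identity. Over these 1444 bases there are 9 substitutions, written with the Hdac1 base first, the position counted from 1 at the 5′ end of ENSMUST00000102597, and the base of the copy last. They are G426A, C492T, T525A, A544G, C549T, C556T, T566C, T803C and C1254A. The 120 bases of coding sequence that hold the most of them, 6, are shown for both loci as the stretch in which the copy differs most from Hdac1, with the differing bases in capitals. The other 3 are spread over the rest of the alignment. The Hdac1 stretch is in exon 5, chr4:129522975-129523094 on the minus strand, and that of the copy is chr17:78491944-78492063 on the plus strand.
Hdac1: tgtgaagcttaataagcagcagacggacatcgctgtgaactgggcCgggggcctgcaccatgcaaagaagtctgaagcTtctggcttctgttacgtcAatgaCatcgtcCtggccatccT
Gm10093: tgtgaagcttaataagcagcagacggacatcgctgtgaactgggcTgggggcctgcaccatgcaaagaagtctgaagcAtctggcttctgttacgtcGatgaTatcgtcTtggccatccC

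The RefSeq and known-gene tables list Hdac1 but not Gm10093, and the ENCODE and Ensembl tables list both. In the ENCODE table Gm10093 is listed with 1977 bases, whereas its GENCODE M21 model has 1444 bases, all of them aligned above. Its counts therefore also cover bases outside that alignment, and whether those bases match Hdac1 was not examined. Gm10093 had 1679 and 1418 counts in Em+ and 1392 and 1555 counts in Em- libraries. The 7 models of Hdac1 together had 499 and 567 counts in Em+ and 401 and 414 counts in Em- libraries. The copy thus held 77.09 and 71.44% of the summed counts of the Em+ libraries and 77.64 and 78.97% of those of the Em- libraries. These shares depend on the models listed, since the Hdac1 models overlap and most of them are retained-intron models, which include intron bases. How the counting treated reads that match both loci is not given in the sources used here, so transcripts of the copy and of Hdac1 cannot be told apart by these counts. The low place of Hdac1 in the order of levels, and the Hdac2 to Hdac1 ratio, come from a table in which reads counted at the copy have no entry.

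With TMM scaling, the size of the Hdac1 difference depended on which of these counts were taken, its direction did not. Its log2 fold change came to 0.52 for the Hdac1 models alone in the ENCODE table (SE 0.13, 95% interval 0.23 to 0.81, edgeR adjusted p = 0.0588). It was 0.20 for Gm10093 (SE 0.08, 95% interval 0.01 to 0.38, edgeR adjusted p = 0.199). Summed over both loci, the level was 123.5 and 125.7 CPM in Em+ and 100.2 and 105.9 CPM in Em- libraries. After this scaling the groups did not overlap and the Em+ libraries were close to each other. The log2 fold change of this sum was 0.27 (SE 0.07, 95% interval 0.10 to 0.45, edgeR adjusted p = 0.0846). In the single-locus counts, Em+ replicate 2 was the higher Em+ library for Hdac1 and the lower one for Gm10093. In FPKM, which has no TMM scaling, the groups overlapped for Gm10093, at 23.22 and 18.92 in Em+ and 19.61 and 21.05 in Em- libraries. The sum was not fitted with library totals alone.

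One model of Hdac1 differed between the groups when transcripts were tested one by one. The 10 genes have 74 models in the ENCODE table, and 59 of them passed the filter. Of these, 1 was higher and 0 were lower in Em+ cells (edgeR, adjusted over 30814 transcripts), where 2.39% of all transcripts tested passed, 2.1% higher in Em+ cells. The one was ENSMUST00000139305, a retained-intron model of 754 bases (chromosome 4, 129528515 to 129542691). It had 122 and 134 counts in Em+ libraries against 46 and 55 in Em- libraries, or 7.12 and 8.72 CPM against 2.64 and 3.03 CPM. Both Em+ libraries were well above both Em- libraries. Its log2 fold change was 1.48 (SE 0.19, 95% interval 1.05 to 1.90, edgeR adjusted p = 0.00085), and it was 1.32 to 1.61 with each library left out in turn. With library totals and no further scaling it was 1.32 (edgeR adjusted p = 1.94e-07).

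This model starts within exon 1 of Hdac1, holds exons 2 and 3, and runs on for 412 bases into the intron after exon 3. No other annotated gene overlaps that exon. The counts of the model cover all 754 bases, including exon bases that it shares with the messenger RNA. They do not separate reads in the intron from reads in the exons, so a change in intron retention was not tested. The alignment with Gm10093 starts at base 85 of the messenger RNA, and its first substitution, G426A, is in exon 4. Exon bases of the model from base 85 on are therefore the same in the copy. The part of reads from the copy in the counts of the model was not tested. The 30 last bases of exon 3 and the first 120 bases of the intron, chr4:129528807-129528956 on the minus strand, are shown because they are the stretch by which the model departs from the messenger RNA, with the GT of the splice donor in capitals.
Hdac1 exon 3 into intron 3: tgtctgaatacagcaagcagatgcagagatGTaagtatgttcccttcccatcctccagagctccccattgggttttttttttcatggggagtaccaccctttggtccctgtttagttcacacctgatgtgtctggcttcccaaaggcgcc

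The other 4 tested models of Hdac1 did not pass. ENSMUST00000132909, a retained-intron model of 473 bases further along the gene, had 64 and 96 counts in Em+ and 53 and 64 counts in Em- libraries, which gave 0.59 on the log2 scale (SE 0.25, edgeR adjusted p = 0.253). ENSMUST00000145628, the retained-intron model with the most counts of the gene, had 106 and 112 counts in Em+ and 113 and 116 counts in Em- libraries, which gave 0.06 (SE 0.16, edgeR adjusted p = 0.879). ENSMUST00000142984, at 89, 107, 80 and 71 counts in Em+ replicates 1 and 2 and then the Em- pair, gave 0.51 (SE 0.20, edgeR adjusted p = 0.222). ENSMUST00000150105, at 30, 39, 37 and 40 counts, gave -0.02 (SE 0.27, edgeR adjusted p = 0.98). ENSMUST00000125718 had 23, 35, 22 and 27 counts and lay below the filter. The messenger RNA ENSMUST00000102597 itself was listed with only 65, 44, 50 and 41 counts and lay below the filter. In the RefSeq table, where Hdac1 has 1 transcript, that transcript had 332, 408, 289 and 287 counts. How reads were divided among overlapping models is not given, so the low count does not measure the level of the messenger RNA. Without ENSMUST00000139305, the log2 fold change of the gene in the ENCODE table was 0.32 (SE 0.13, 95% interval 0.01 to 0.62, edgeR adjusted p = 0.208) in place of 0.52. The removed model was the one with the largest estimate, so a lower value was set by that choice. In the RefSeq table, which lists no retained-intron model of Hdac1, the log2 fold change was 0.51. Retained-intron models as a class took 12.5 and 12.7% of the ENCODE counts of Em+ cells and 12.4 and 12.5% of those of Em- cells. Of 6806 such models tested, 74 were higher and 6 lower in Em+ cells, with a median log2 fold change of 0.02, and 16, ENSMUST00000139305 included, had one that large or larger.

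**Figure D4:**
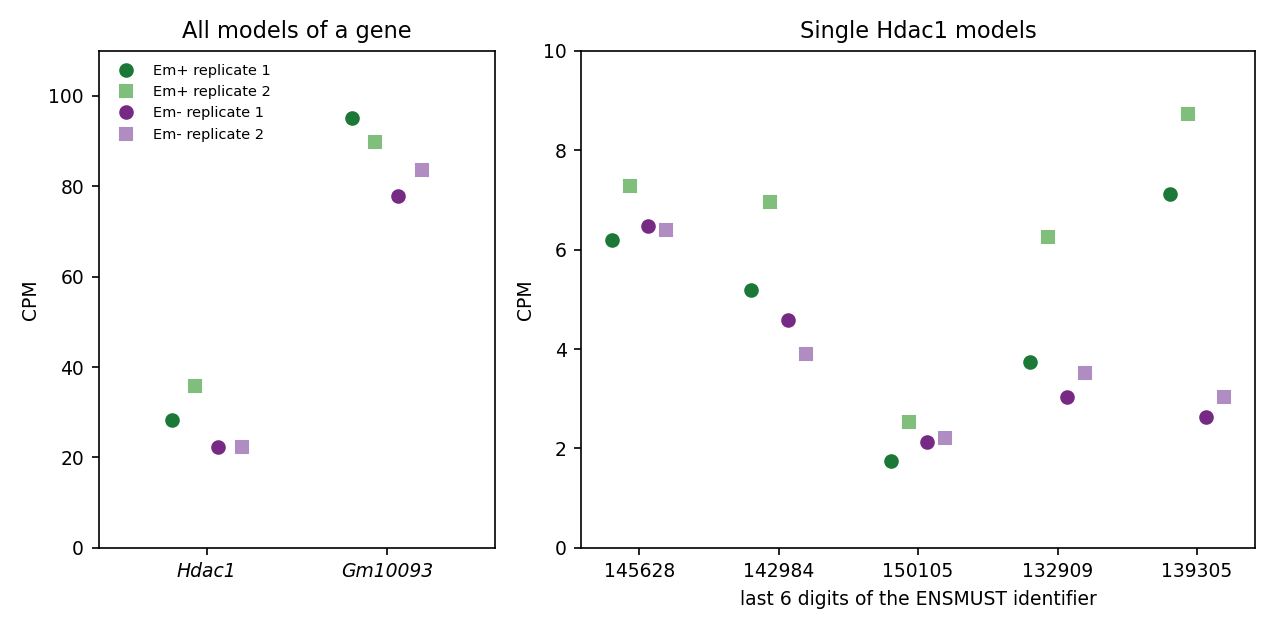
CPM (vertical axes, from 0) in each of the 4 libraries in the ENCODE table, on the left for Hdac1 and its processed pseudogene Gm10093 and on the right for the 5 tested Hdac1 models in genome order. Gm10093 lies at 77.8 to 95.2 CPM against 22.3 to 35.9 CPM for Hdac1, and ENSMUST00000139305 is at 7.12 and 8.72 CPM in Em+ against 2.64 and 3.03 CPM in Em- libraries.

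For the other 9 genes, the tested models of a gene gave estimates of one sign in all but Suv39h1. The 9 tested models of Ehmt2 lay between -0.35 and -0.18, the 9 of Trim28 between 0.05 and 0.13, the 3 of Setdb1 between 0.13 and 0.16, and the 8 of Kdm1a between 0.02 and 0.10. Those of Hdac2 lay between -0.14 and -0.06, of Cbx5 between -0.14 and -0.11, of Cbx1 between -0.23 and -0.10 and of Ehmt1 between 0.0044 and 0.31. The models of Suv39h1 were on both sides of 0, from -0.10 to 0.13. Models of a gene overlap and can share reads, so they are not replicates of each other.

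The choice of table changed the counts of some of the genes more than their estimates. The summed counts of Setdb1 differed by 1.03 times between the tables with the most and the fewest, those of Trim28 by 1.13 times, those of Cbx5 by 2.16 times and those of Cbx1 by 4.67 times. For Cbx1, the model ENSMUST00000079702 had 1116, 893, 1169 and 1177 counts in the ENCODE table and 327, 238, 391 and 341 counts in the Ensembl table, in the order of Em+ replicates 1 and 2 and Em- replicates 1 and 2. The reason for this gap is not given in the sources used here. The log2 fold change of Cbx1 was -0.23, -0.24, -0.14 and -0.23 in the RefSeq, known-gene, ENCODE and Ensembl tables.

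Among 82 other genes of the pathway, in 7 lists, 74 passed the filter, and 1 was higher and 0 were lower in Em+ cells by edgeR's test, against 3.82% and 0.822% of all genes. At an unadjusted p under 0.05 there were 18 of 74, against 25.3% of all genes, which is also the background of such counts for the single lists below. The median log2 fold change was 0.02, beside 0.00 for all genes. The gene that passed was Zfp809, a KRAB zinc finger protein that binds retroviral sequence and recruits Trim28. It was at 17.1 and 17.1 FPKM in Em+ and at 7.33 and 7.42 FPKM in Em- libraries, or 56.0 and 65.4 against 23.2 and 23.4 CPM, so that the groups were far apart. Its log2 fold change was 1.38 (SE 0.10, 95% interval 1.15 to 1.61, edgeR adjusted p = 0.000183), and it passed in all 19 alternatives run, at 1.11 to 1.49. No other KRAB or Trim28-related gene of its list passed. The imprinting regulator Zfp57 had a log2 fold change of 0.15 (edgeR adjusted p = 0.273) and Zfp568 one of -0.18 (edgeR adjusted p = 0.147), which passed at -0.19 and -0.16 without Em+ replicates 1 and 2. Trim66 lay below the filter. For this list 1 of 7 tested passed, with a median of 0.05.

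**Figure D5:**
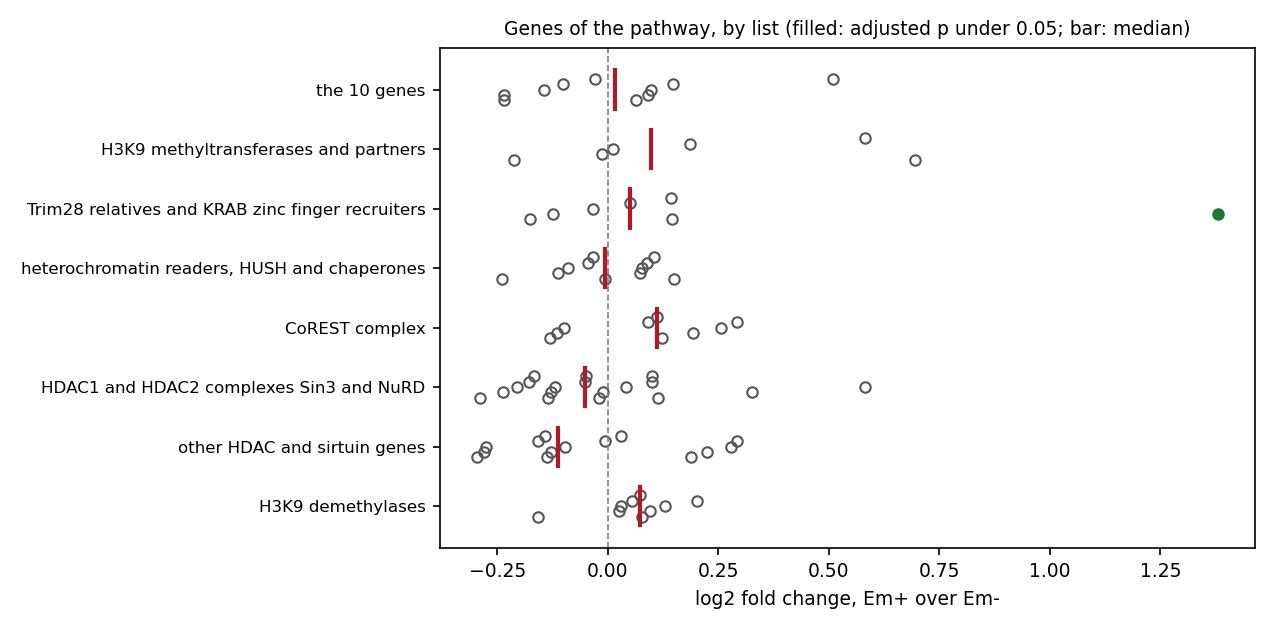
Log2 fold change (Em+ over Em-, horizontal axis) of every tested gene in the set of 10 and in 7 other lists of the pathway, with the median of each list as a red bar and genes past the threshold filled. Zfp809 at 1.38 is the one filled point, and the medians lie between -0.11 and 0.11.

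Partners of the methyltransferases included the largest estimate after that of Zfp809. Of 6 tested, 0 passed with edgeR and 3 had an unadjusted p under 0.05, with a median of 0.10. Wiz, the zinc finger partner of the Ehmt heterodimer, was at 20.9 and 30.3 CPM in Em+ and at 16.2 and 15.4 CPM in Em- libraries, or 0.69 on the log2 scale (SE 0.17, edgeR adjusted p = 0.0664). Atf7ip, the cofactor that stabilises Setdb1, was at 85.8 and 119.8 CPM in Em+ and at 68.5 and 68.7 CPM in Em- libraries, or 0.58 on the log2 scale (SE 0.14, edgeR adjusted p = 0.0647). In both genes all Em+ values were above all Em- values and Em+ replicate 2 was the highest library. Each passed with any one library left out. Wiz was then at 0.94 without Em+ replicate 1, 0.40 without Em+ replicate 2, 0.73 without Em- replicate 1 and 0.66 without Em- replicate 2. Atf7ip was at 0.80, 0.32, 0.58 and 0.58 in the same order. DESeq2's Wald test called both (adjusted p = 0.00913 and 0.00233).

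In the heterochromatin readers, the HUSH silencing complex and the histone chaperones, 0 of 11 passed with edgeR, 1 had an unadjusted p under 0.05, and the median was -0.0058. Chaf1b, a subunit of the chromatin assembly factor CAF-1, had the largest estimate, -0.24 (SE 0.07, edgeR adjusted p = 0.101), at 73.7 and 69.8 CPM in Em+ and 84.6 and 84.8 CPM in Em- libraries. It passed without Em+ replicate 1 (-0.28) and without Em+ replicate 2 (-0.20). Morc2a, a HUSH-associated ATPase, was at 0.15 (SE 0.07, edgeR adjusted p = 0.232) and passed without Em+ replicate 1 at 0.21, but was at 0.09 without Em+ replicate 2 and at 0.05 in the Ensembl and ENCODE tables.

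In the complexes around Kdm1a, Hdac1 and Hdac2, 0 of 9 CoREST genes and 0 of 18 Sin3 and NuRD genes passed with edgeR, with 1 and 5 at an unadjusted p under 0.05 and medians of 0.11 and -0.05. Zmym2, a zinc finger subunit found with CoREST, was at 0.29 (SE 0.08, edgeR adjusted p = 0.0943) and passed at 0.40 without Em+ replicate 1 and 0.18 without Em+ replicate 2. Rcor3, a CoREST scaffold, was at 0.26 (SE 0.16, edgeR adjusted p = 0.334) and passed at 0.44 without Em+ replicate 1, but was at 0.05 without Em+ replicate 2. Gatad2b, a NuRD subunit, had the largest estimate at 26.7 and 38.4 CPM in Em+ and 21.8 and 21.6 CPM in Em- libraries, or 0.58 on the log2 scale (SE 0.16, edgeR adjusted p = 0.0862). It passed with any one library left out, at 0.82 and 0.30 without Em+ replicates 1 and 2 and at 0.58 without either Em- library. Sap130, a Sin3 subunit, was at 0.33 (SE 0.09, edgeR adjusted p = 0.0857), and it passed at 0.43 and 0.21 without Em+ replicates 1 and 2. Chd4, the main NuRD remodeler of ES cells, could not be read from the RefSeq table, where it was listed with 15 to 22 counts per library and lay below the filter.

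Of the other deacetylase and sirtuin genes, 0 of 14 passed with edgeR, 4 had an unadjusted p under 0.05, and the median was -0.11. Hdac10, a class II deacetylase, was at -0.29 (SE 0.15, edgeR adjusted p = 0.269). It was at -0.64 in both the Ensembl and ENCODE tables (edgeR adjusted p = 0.0867 and 0.0804) and at -0.17 without Em- replicate 1. The mitochondrial sirtuin Sirt4 was at 0.29 (SE 0.12, edgeR adjusted p = 0.194), and it passed at 0.43 without Em+ replicate 1 and was at 0.14 without Em+ replicate 2. Of the H3K9 demethylases 0 of 9 passed with edgeR, 2 had an unadjusted p under 0.05, and the median was 0.07. Kdm7a was at 0.20 (SE 0.09, edgeR adjusted p = 0.192), and it passed at 0.31 without Em+ replicate 1 and was at 0.08 without Em+ replicate 2. Kdm4c was at -0.16 (SE 0.06, edgeR adjusted p = 0.172) and passed at -0.17 and -0.14 without Em+ replicates 1 and 2.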

How the data were processed

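Per the file headers, each of 4 tables deposited by the authors (transcript models of RefSeq, of the known genes, of ENCODE and of Ensembl) gives a raw count and an FPKM for every transcript and library. The submitters' processing notes name Bowtie2 (version not given) and mm10. Not given in the sources used here are the counting program and its treatment of strand and of reads with several matches. In the deposited RefSeq and Ensembl tables the counts of Em- replicate 1 are all 0, so they were computed as FPKM, plus 0.0005 for truncation, times length times the library total of the known-gene table. The same step returned the exact count for 99.95 to 99.96% of 24538 RefSeq transcripts in the other libraries, and 99.47% of 13036 computed counts equalled the known-gene count.

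Counts and FPKM were summed per symbol. Genes that averaged an FPKM of 1 or more, 12050 in all, were tested with edgeR 4.0.16 (R 4.3.3; quasi-likelihood, TMM, two-sided, no covariate), Benjamini-Hochberg adjusted, threshold 0.05; the common biological coefficient of variation was 0.0731. CPM is TMM-scaled, and the SE comes from the F statistic. The test was checked on simulated counts with the same dispersion in every gene and group, which leaves out the wider spread of the real Em+ pair. Alternatives used DESeq2 1.42.0, limma 3.58.1 on log2(FPKM + 1) and log2(FPKM + 0.1), other scalings, filters and tables, the replicate number as a block, and each library left out. Copies were sought with BLAST+ 2.17.0 in GENCODE transcripts, at 90% identity over 200 bases or more.

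The 10 genes and the lists were chosen with earlier results of these data known. Named are all 10 genes, and of each other list the genes past the threshold or, failing 2 of these, those with the largest absolute log2 fold change up to 2, and transcripts with at least 5% of their gene's FPKM, which are named for Hdac1 and given by their range for the other genes. Zfp57, Trim66 and Chd4, the Hdac1 messenger RNA model and the copies were named after their values were seen.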

Additional observations from a re-analysis of the deposited data

How the results depend on the processing

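Over 447 values of 24 genes under other settings, 383 kept their direction and side of the threshold, 46 came past it and 18 changed sign. None of the 10 genes passed under DESeq2 size factors, the DESeq2 Wald test, limma, library totals without further scaling, either filter, the other tables, 1 transcript per gene or without Rn45s, nor in the ENCODE fits with Gm10093 added or ENSMUST00000139305 removed (chosen after seeing the data, as were the fits of single transcripts). Hdac1 lay below the filter of a mean FPKM of at least 5. Leaving out a library gave 0 to 7 calls among the 10, 4 to 45 among the other pathway genes and 490 to 4992 over all genes, where the main count was 559. The highest of each came without Em+ replicate 1; removing Em+ replicate 2 gave 1968 over all genes. The cause was not tested.

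The calls over all genes were 293 and 269 with limma at a pseudocount of 1 and 0.1, 1178 with no filter and 171 with a mean FPKM of at least 5. Among the other pathway genes there were 2 with library totals alone, 4 with the DESeq2 Wald test and 3 with no filter, in place of 1. The deviations of same-numbered libraries had a correlation of 0.0034. This value alone does not show whether such libraries shared a culture or sorting run, which the labels do not say. With the replicate number as a block there were 1552 calls over all genes, 1 of the 10 (Hdac1, 0.50, edgeR adjusted p = 0.0158) and 7 other pathway genes.

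The values that changed sign were small. With library totals alone, Trim28 was at -0.06, Setdb1 at -0.01, Ehmt1 at -0.08, Kdm1a at -0.09 and Morc2a at -0.01. With limma on log2(FPKM + 1) they were at -0.07, -0.02, -0.07, -0.10 and -0.01, and on log2(FPKM + 0.1) at -0.07, -0.02, -0.08, -0.10 and -0.01. The median of all genes was -0.16, -0.14 and -0.16 in these fits. With each library left out, Ehmt1 was at -0.0028 (without Em+ replicate 2) to 0.18 and Suv39h1 at -0.08 to 0.02 (without Em- replicate 2). Suv39h1 was at 0.01 with a mean FPKM of at least 5. The number of libraries, 2 a group, limits the precision shown by the width of the 95% intervals of the 10 genes.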
